A study of Mus musculus with 9 samples.

Results

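The collagen genes of the mouse were examined in 2 fractions of sorted prostate cells. Members were all array probes, other than control spots, whose gene name had the form Col, a number, a and a number, with Col17a1 left out. This gave 76 of 41174 probes and 39 of 27962 gene names. Each gene was represented by its brightest probe, and the genes were divided into 11 fibrillar, 9 network and 19 other collagens. The last class held 9 fibril-associated collagens (FACITs), 3 beaded-filament collagens, 3 membrane collagens, 2 multiplexins, Col7a1 and Col28a1.

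Collagens are extracellular matrix proteins whose chains wind into a helix of repeated glycine-containing units. Fibrillar collagens are cleaved after secretion and assemble into cross-linked fibres that carry load in connective tissue, where fibroblasts make most of them. Network collagens, above all type IV, form the sheets of basement membranes under epithelium and around vessels and smooth muscle. In the prostate, stromal cells surround epithelial ducts, and a basement membrane separates the compartments.

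Cells came directly from prostates of BL6 mice. One fraction lacked lineage markers and carried the surface proteins CD117, Sca-1, CD133 and CD44 (marker-positive, called stem cells in the labels, 3 arrays). The other lacked both the lineage markers and these 4 surface proteins (marker-negative, called non-stem cells, 6 arrays). On every array, amplified RNA of sorted cells carried Cy5 and the Universal Mouse Reference from Stratagene, a common pool, carried Cy3. A value below is the log2 ratio of Cy5 to Cy3, so 0 means as much signal as in the reference and 1 means 2-fold more. Such ratios compare arrays for one probe and do not rank genes by abundance. The labels do not state whether arrays of a group came from different animals, and the p-values may therefore reflect technical spread alone. RNA of a whole fraction was measured, so fewer cells of a type and less RNA per cell cannot be told apart.

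Before the results, 1 array has to be named. Over the 28334 probes that cleared the Cy5 background on 3 arrays or more, marker-positive replicates 1 and 2 correlated at 0.923. Replicate 3 correlated with them at 0.609 and 0.582. The share of probes that the scanner software marked as well above background in Cy5 was 67.3% on replicate 1, 69.3% on replicate 2, 45.5% on replicate 3 and 47.5% to 69.5% on marker-negative arrays. Counts of collagens and many values of single genes are therefore also given without that array. As a check of the labels, Ly6a, which encodes Sca-1, Kit, which encodes CD117, and Cd44 were higher in marker-positive cells (log2 differences 3.93, 3.45 and 2.06). Prom1, which encodes CD133, was not (-0.44, limma adjusted p = 0.765). The prostate secretory genes Msmb and Pbsn were well above background on all 9 arrays.

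The letters in front of a gene's start are shown for 4 members on which the results turn. Col4a5 was the single member called, Col8a1 was the other member whose groups did not overlap, Col4a6 is the neighbour of Col4a5 that lay in the opposite direction, and Col1a2 stands for the fibrillar class. Each line holds the 250 bases before the annotated start, 5′ to 3′ on the gene's strand, from RefSeq (GRCm38.p6). The windows are chrX:141475169-141475418 (plus strand) for Col4a5, chrX:141474077-141474326 (minus) for Col4a6, chr16:57754738-57754987 (minus) for Col8a1 and chr6:4505368-4505617 (plus) for Col1a2. Capitals mark matches to CCAAT (the CCAAT box), TATAAA (the TATA box) and GGGCGG (the GC box) on either strand.
Col4a5: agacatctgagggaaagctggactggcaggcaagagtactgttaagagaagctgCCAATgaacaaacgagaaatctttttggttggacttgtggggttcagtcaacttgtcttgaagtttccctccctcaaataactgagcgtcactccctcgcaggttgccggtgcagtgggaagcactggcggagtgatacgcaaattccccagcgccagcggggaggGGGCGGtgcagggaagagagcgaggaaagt
Col4a6: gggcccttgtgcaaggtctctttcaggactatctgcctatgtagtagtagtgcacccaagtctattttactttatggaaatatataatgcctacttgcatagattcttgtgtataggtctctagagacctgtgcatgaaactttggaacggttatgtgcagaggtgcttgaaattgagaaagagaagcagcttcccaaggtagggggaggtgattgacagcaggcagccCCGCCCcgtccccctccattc
Col8a1: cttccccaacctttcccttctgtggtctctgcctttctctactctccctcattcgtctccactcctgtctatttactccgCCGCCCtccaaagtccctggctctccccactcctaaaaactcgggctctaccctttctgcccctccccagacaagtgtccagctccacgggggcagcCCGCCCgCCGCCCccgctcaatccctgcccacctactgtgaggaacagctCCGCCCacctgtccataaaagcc
Col1a2: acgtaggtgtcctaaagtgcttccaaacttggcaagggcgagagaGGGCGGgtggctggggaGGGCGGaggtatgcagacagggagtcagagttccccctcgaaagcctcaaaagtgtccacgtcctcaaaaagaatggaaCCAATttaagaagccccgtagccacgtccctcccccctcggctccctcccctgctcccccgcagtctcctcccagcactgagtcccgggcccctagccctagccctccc

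The Col4a5 window held a CCAAT box that begins 196 bases before the start and a GC box at 30 bases. That of Col4a6 held a GC box at 21 bases, read on the opposite strand. The Col8a1 window held 4 GC boxes, all on the opposite strand, the nearest at 23 bases. That of Col1a2 held a CCAAT box at 109 bases and 2 GC boxes at 205 and 188 bases. Windows were found for 31 of the 39 genes, 34 windows in all because some genes have several starts. Of these 34, 19 held a GC box, 11 a CCAAT box and 4 a TATA box, against 32.7%, 33.8% and 12.4% of 32851 windows of the same length from all genes. The GC box letters can overlap the other motifs, neighbouring genes can share bases, and a match is a description of letters.

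Most collagens had higher ratios in marker-positive than in marker-negative cells, but 1 passed the test. Of the 39 genes, 34 cleared the Cy5 background on 3 arrays or more. These were tested with limma, with p-values adjusted over all 28334 tested probes and a threshold of 0.05. Of the 34, Col4a5 alone was called higher and none lower, against backgrounds of 1.57% called higher and 1.69% called lower among 19945 genes. At an unadjusted p under 0.05, 9 were higher and none lower, against 9.73% and 9.82% of all genes. The difference was above 0 for 28 of the 39 genes and below 0 for 11. Of the 34 tested collagens 25 lay above 0, while 48.9% of all tested genes lay above 0 and 51.1% below. The median difference over the 39 genes was 0.59 on the log2 scale, against -0.00525 over all genes. Over the 34 tested collagens it was 0.97, against -0.012 over all tested genes. By class, the median was 1.03 for fibrillar, 1.19 for network and 0.38 for other collagens.

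**Figure D1:**
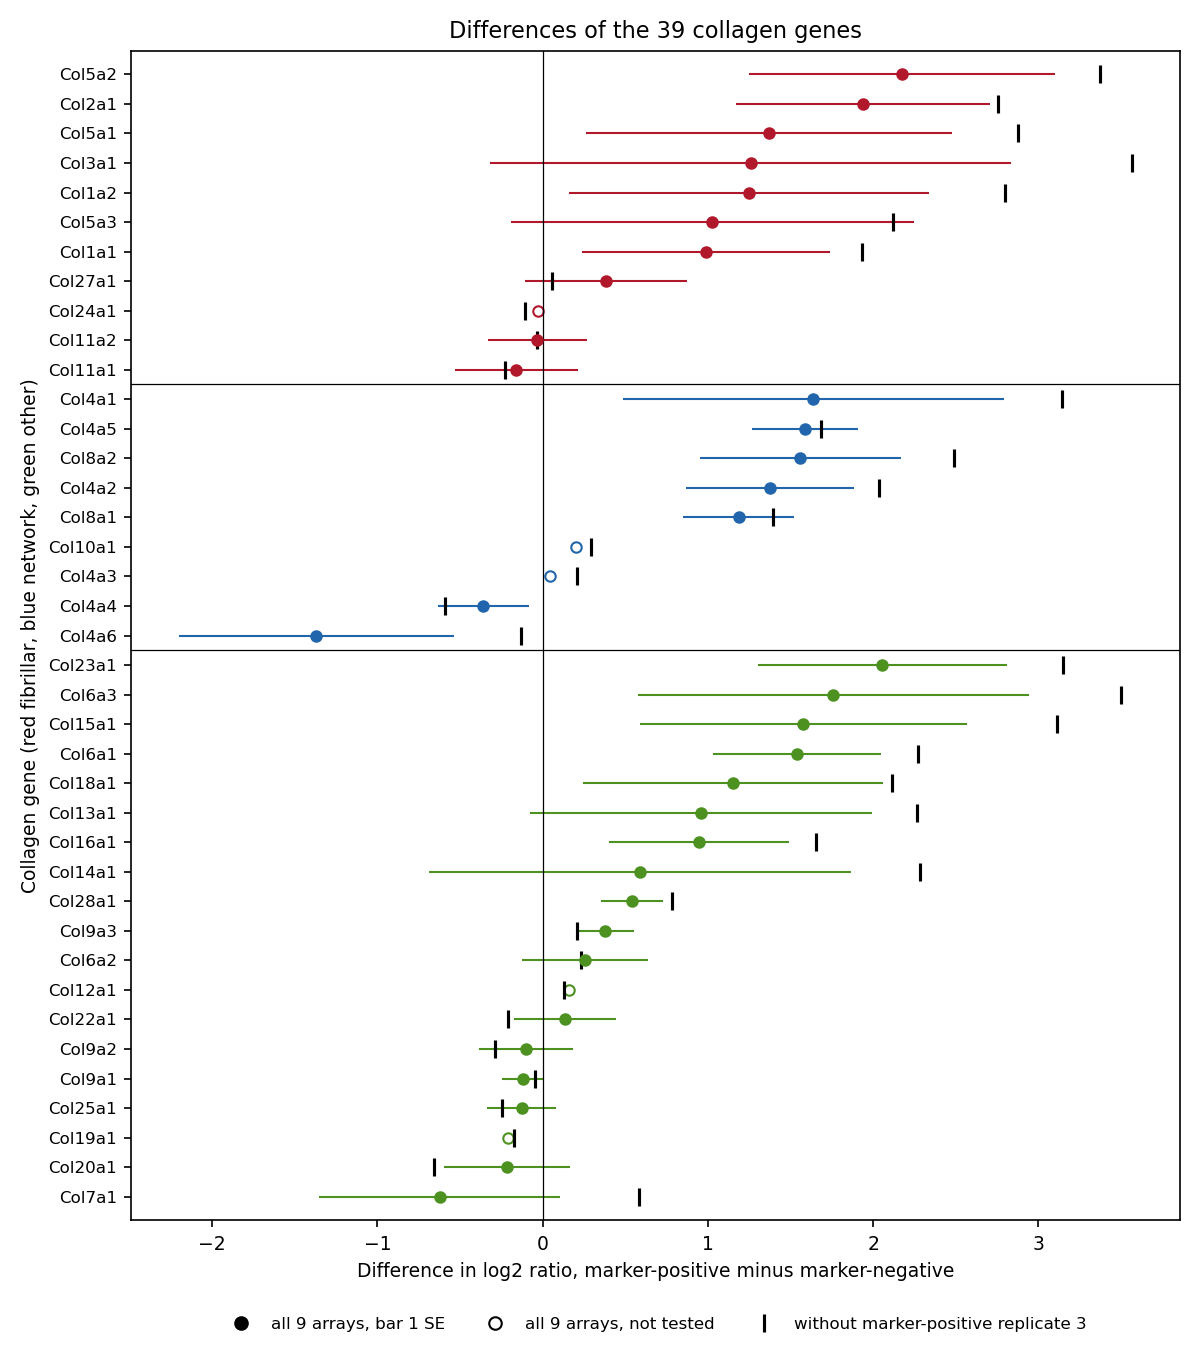
Differences of all 39 collagen genes, marker-positive minus marker-negative mean log2 ratio (x axis), by class (y axis). Filled points are tested genes with bars of 1 SE, open points are the 5 untested genes, and black ticks show the value without marker-positive replicate 3. For most genes with a difference above 0.5 the tick lies to the right of the point; the median moves from 0.59 to 1.40.

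Marker-positive replicate 3 held the lowest of the 3 marker-positive values for 23 of the 34 tested collagens, against 37.4% of all genes. Its value lay inside the marker-negative range for 20 of them (background 53.5%) and below the marker-negative median for 18 (background 45.2%). In 20 of the 39 genes it lay more than 1 log2 unit under both other marker-positive arrays, which themselves lay within 1 unit of each other in 37 genes. For these counts the shares over all genes were not computed. The mean ratio of the fibrillar class in marker-positive cells was 0.09 on replicate 1, 0.16 on replicate 2 and -2.31 on replicate 3. On marker-negative arrays it ran from -2.55 to -0.50. Network collagens had means of 0.23, 0.55 and -1.17 against -1.32 to -0.42, and the other collagens 0.68, 0.91 and -0.79 against -0.66 to 0.04. In each class replicates 1 and 2 thus lay above all 6 marker-negative arrays and replicate 3 within or below their range.

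Without replicate 3, 9 collagens were called higher (background 4.7%) and none lower (background 2.52%). These were Col4a2, Col4a5, Col5a2, Col6a1, Col6a3, Col8a2, Col15a1, Col23a1 and Col28a1. At an unadjusted p under 0.05 in that limma fit, 19 were higher (background 12.5%) and none lower (background 11.8%). Replicates 1 and 2 then lay above all marker-negative arrays for 19 collagens (background 13.6%) and below them for 2, Col4a4 and Col20a1 (background 18.0%). With all 3 marker-positive arrays the groups did not overlap for Col4a5 and Col8a1, both higher (background 5.14%), and for none in the other direction (background 6.48%). The median over the 39 genes rose to 1.40 without replicate 3, against -0.0385 over all genes and -0.081 over all tested genes. The class medians were then 2.12, 1.40 and 0.58.

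**Figure D2:**
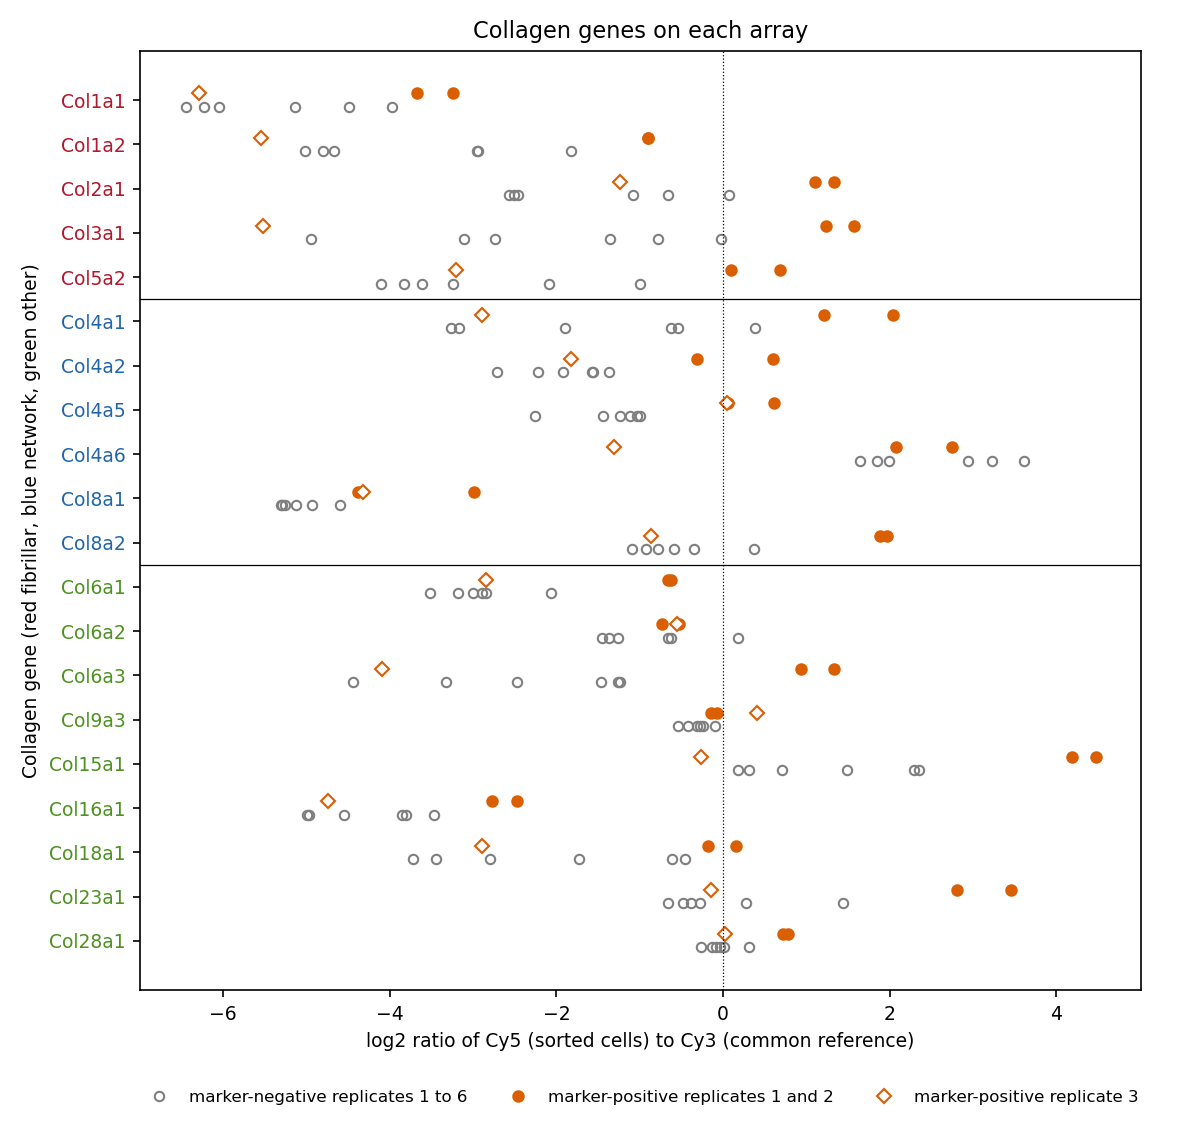
Log2 ratio to the reference (x axis) of the 20 named collagen genes (y axis) on each of the 9 arrays. Filled points are marker-positive replicates 1 and 2, diamonds marker-positive replicate 3 and open circles the 6 marker-negative arrays. For Col4a5 and Col8a1 all marker-positive arrays lie above all marker-negative arrays, while for genes such as Col3a1 the diamond lies at the low end.

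Type I collagen, the main fibre of connective tissue, is built from the chains of Col1a1 and Col1a2. Col1a2 (probe on chromosome 6, 4493505 to 4493564, build mm7) gave -0.90, -0.91 and -5.55 on marker-positive replicates 1 to 3. On marker-negative arrays its lowest, median and highest values were -5.02, -3.81 and -1.83. Replicates 1 and 2 lay above every marker-negative array and replicate 3 below all of them. The difference was 1.25 (SE 1.09, limma adjusted p = 0.583), and 2.80 (adjusted p = 0.0787) without replicate 3. For Col1a1 (probe on chromosome 11, 95060800 to 95060859) the marker-positive values were -3.67, -3.24 and -6.28 against -6.45, -5.59 and -3.98. Its difference was 0.99 (SE 0.75, adjusted p = 0.520), and 1.93 without replicate 3 (adjusted p = 0.117).

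Col3a1, the chain of type III collagen, which joins type I in vessel walls and reticular fibres, had the widest spread over the marker-positive arrays among the 39 genes (SD 4.0). Its marker-positive values were 1.58, 1.24 and -5.52 and its marker-negative values -4.95, -2.05 and -0.028 (lowest, median, highest). Replicate 3 was the lowest and replicates 1 and 2 the highest of the 9 arrays. The difference was 1.26 (SE 1.57, adjusted p = 0.724), and 3.57 or 11.8-fold without replicate 3 (adjusted p = 0.0971). Col5a2, a chain of type V collagen, which sits inside type I fibrils and helps set their width, had the largest difference of the family. It gave 0.69, 0.095 and -3.20 in marker-positive and -4.11, -3.43 and -1.0 in marker-negative cells. That is a difference of 2.17 (SE 0.93, adjusted p = 0.232), called without replicate 3 (3.37, adjusted p = 0.0377). Its partner chains Col5a1 and Col5a3 differed by 1.37 and 1.03, neither called. Without replicate 3 these were 2.88 or 7.34-fold for Col5a1 (adjusted p = 0.0920) and 2.12 or 4.35-fold for Col5a3 (adjusted p = 0.351).

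Col2a1, the type II chain best known from cartilage, gave 1.34, 1.11 and -1.24 against -2.57, -1.77 and 0.076. The difference was 1.94 (SE 0.77, adjusted p = 0.202), and replicate 3 was the array that overlapped the marker-negative range. Without it the difference was 2.76 or 6.76-fold (adjusted p = 0.0623). A second tested Col2a1 probe (97979257 to 97979316) overlaps the brightest one (97979237 to 97979296) and did not show this difference. It was well above background on all 9 arrays and gave 0.13, 0.071 and 1.20 in marker-positive cells. Its difference was -0.17 (limma adjusted p = 0.856), and -0.54 without replicate 3 (adjusted p = 0.393). The remaining fibrillar genes lay near 0. Col11a1, Col11a2 and Col24a1 differed by -0.16, -0.033 and -0.031 and Col27a1 by 0.38, and Col24a1 was not tested.

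Among network collagens, Col4a1 and Col4a2 encode the type IV chains found in nearly all basement membranes. Col4a1 (probe on chromosome 8, 11167020 to 11167079) gave 1.21, 2.04 and -2.90 in marker-positive cells against -3.26, -1.26 and 0.38. Col4a2 (11416851 to 11416910) gave -0.32, 0.60 and -1.83 against -2.71, -1.75 and -1.37. In both genes replicates 1 and 2 were the highest of the 9 arrays and replicate 3 fell among the marker-negative arrays. The differences were 1.64 (SE 1.15, adjusted p = 0.483) for Col4a1 and 1.38 (SE 0.51, adjusted p = 0.173) for Col4a2. Without replicate 3 they were 3.14 (adjusted p = 0.0912) and 2.03 (adjusted p = 0.0256). The Col4a2 call did not extend to its second tested probe (11416191 to 11416250). That probe was well above background on 3 of 3 marker-positive and 6 of 6 marker-negative arrays. Its difference was 0.22, and 0.35 without replicate 3 (limma adjusted p = 0.715). A second Col4a1 probe differed by 1.07, and by 1.57 without replicate 3 (limma adjusted p = 0.0639).

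Col4a5 and Col4a6 encode the type IV chains that pair in epithelial and smooth muscle basement membranes. Col4a5 (probe on chromosome X, 136352769 to 136352828) gave 0.61, 0.057 and 0.042 in marker-positive cells and -2.26, -1.18 and -1.0 in marker-negative cells. All 3 marker-positive arrays lay above all 6 marker-negative ones, and replicate 3 was close to replicate 2. The difference was 1.58 or 3.0-fold (SE 0.32, adjusted p = 0.0298). It was well above background on 3 of 3 marker-positive but 2 of 6 marker-negative arrays, so the lower mean rests partly on background. The call ended on leaving out replicate 1 or 2 of the marker-positive group, or replicate 1, 2 or 5 of the marker-negative group. Differences ran from 1.40 to 1.68 over all 9 omissions. It also ended under median centring (1.38, adjusted p = 0.135) and with slide as a fixed block (1.91, adjusted p = 0.107). Col4a6 (135829764 to 135829823) gave 2.08, 2.75 and -1.30 against 1.64, 2.47 and 3.61. Replicate 3 was the lowest of the 9 arrays and replicates 1 and 2 lay inside the marker-negative range. Its difference was -1.37 (SE 0.83, adjusted p = 0.408), and -0.13 without replicate 3. That pattern was particular to the brightest probe. On the other Col4a6 probes (135831206 to 135831265 and 135830590 to 135830649), replicates 1 and 2 were the lowest of the 9 arrays. Replicate 3 lay inside the marker-negative range on both. These probes differed by -0.74 and -0.14, and by -1.08 and -1.0 without replicate 3, none called.

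Type VIII collagen forms short-chain lattices in vessel walls and the cornea. Col8a1 gave -4.39, -2.99 and -4.32 against -5.30, -5.19 and -4.60, with no overlap between the groups. Its difference of 1.19 (SE 0.34) did not pass (adjusted p = 0.0917), nor did that of 1.40 without replicate 3 (adjusted p = 0.0588). Col8a2 gave 1.97, 1.89 and -0.87 against -1.09, -0.69 and 0.37, with replicate 3 among the marker-negative arrays. The difference was 1.56 (SE 0.61, adjusted p = 0.194), and 2.49 (adjusted p = 0.00875) without replicate 3. Col4a4, a chain of the kidney filter, differed by -0.36 (adjusted p = 0.527). Its partner chain Col4a3 and the growth plate collagen Col10a1 stayed within background on every marker-negative array and were not tested. Their measured differences were 0.041 and 0.20.

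The beaded-filament collagen, type VI, links basement membranes to the interstitial matrix. Col6a1 (probe on chromosome 10, 76364050 to 76364109) gave -0.66, -0.63 and -2.84 against -3.51, -2.95 and -2.07. Replicates 1 and 2 agreed closely and lay above all marker-negative arrays, whereas replicate 3 lay inside their range. The difference was 1.54 (SE 0.51, adjusted p = 0.134), and 2.27 or 4.84-fold (adjusted p = 0.00937) without replicate 3. Col6a3 gave 1.33, 0.94 and -4.09 against -4.45, -1.97 and -1.24. Its difference was 1.76 (SE 1.19, adjusted p = 0.462), and 3.50 (adjusted p = 0.0415) without replicate 3. A second tested Col6a3 probe (90706592 to 90706651) lay in the other direction, at -0.75 (limma adjusted p = 0.245). Without replicate 3 it gave -0.81 (adjusted p = 0.251). It was well above background on 0 of 3 marker-positive and 4 of 6 marker-negative arrays. Col6a2 gave -0.73, -0.53 and -0.56 against -1.45, -0.96 and 0.18, so that replicate 3 did not stand apart. It differed by 0.26 (SE 0.38, adjusted p = 0.775) and by 0.23 without replicate 3. A second tested Col6a2 probe differed by 0.94 (limma adjusted p = 0.280), and by 0.92 without replicate 3 (adjusted p = 0.325).

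The multiplexins sit at the basement membrane, and type XVIII releases endostatin, an inhibitor of vessel growth. Col15a1 (probe on chromosome 4, 47326045 to 47326104) gave 4.19, 4.47 and -0.26 against 0.18, 1.10 and 2.35. Replicate 3 was the lowest of the 9 arrays and replicates 1 and 2 the highest. The difference was 1.58 (SE 0.99, adjusted p = 0.425), and 3.11 or 8.63-fold (adjusted p = 0.0233) without replicate 3. Col18a1 gave -0.19, 0.16 and -2.89 against -3.72, -2.26 and -0.45. Its difference was 1.15 (SE 0.91, adjusted p = 0.537), and 2.11 (adjusted p = 0.193) without replicate 3.

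Membrane collagens span the plasma membrane. Col23a1 (probe on chromosome 11, 51540140 to 51540199) gave 2.81, 3.45 and -0.14 against -0.66, -0.33 and 1.44. The difference was 2.06 (SE 0.75, adjusted p = 0.170), and 3.15 (adjusted p = 0.0130) without replicate 3. A second Col23a1 probe (51537635 to 51537694) gave 1.69, 2.24 and 3.03 in marker-positive cells, with replicate 3 the highest. Its groups did not overlap, and its difference of 2.39 (SE 0.33) passed (adjusted p = 0.00595). Both probes thus put replicates 1 and 2 above the marker-negative arrays and disagreed on replicate 3. Col13a1 and Col25a1 differed by 0.96 and -0.13, neither called. Without replicate 3 the Col13a1 difference was 2.26 (adjusted p = 0.170).

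The FACITs decorate fibrils without forming them. None of the 7 tested was called with limma and none reached an unadjusted p under 0.05; the median of all 9 was 0.13, and -0.048 without replicate 3. Col16a1 gave -2.77, -2.47 and -4.75 against -4.99, -4.20 and -3.47, a difference of 0.95 (SE 0.54, adjusted p = 0.380). Col9a3, a cartilage FACIT, gave -0.074, -0.14 and 0.41 against -0.54, -0.30 and -0.092, and replicate 3 was its highest array. It differed by 0.38 (SE 0.17, adjusted p = 0.262). Without replicate 3 the Col16a1 difference was 1.65 (adjusted p = 0.0614). Col14a1 gave 5.34, 5.23 and 0.21 in marker-positive cells, and replicates 1 and 2 lay above all marker-negative arrays. It differed by 0.59, and by 2.28 or 4.86-fold (adjusted p = 0.231) without replicate 3. The differences were close to 0 for Col9a1, Col9a2, Col20a1 and Col22a1, at -0.22 to 0.13. Col12a1, the FACIT of tendon and skin, was not well above background on any array, and Col19a1 on 2 marker-negative arrays only. Of the last pair of members, the anchoring fibril collagen Col7a1 gave 1.07, 1.83 and -2.17 against 0.17, 0.96 and 1.27 (difference -0.62, adjusted p = 0.701). Its difference without replicate 3 was 0.58. Col28a1 gave 0.72, 0.78 and 0.025 against -0.26, -0.062 and 0.32. It differed by 0.54 (SE 0.19, adjusted p = 0.152), and by 0.78 (adjusted p = 0.0221) without replicate 3.

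Arrays on one slide were compared directly, since slides 1 and 2 held both groups. Slide 1 carried replicate 1 of each group, and slide 2 carried replicate 2 of each group with the fourth marker-negative array. These comparisons share no array and leave out marker-positive replicate 3, which lay on slide 5 without another array. The difference was above 0 on both slides for 25 of the 39 collagens (background 33.8%) and below 0 on both for 6 (background 39.5%). These shares cover tested genes only, while the 39 include 5 untested collagens. A difference of at least 1 log2 unit on both slides was found for 15, of which 5 were fibrillar, 4 network and 6 other collagens. The median was 0.63 on slide 1 and 1.80 on slide 2, against -0.045 and -0.039 over all tested genes. Of the 39 collagens 31 had the larger value on slide 2. Shares over all genes were not computed for the counts of 15 and 31, which are descriptions only. Values on slides 1 and 2 were 2.36 and 4.16 for Col3a1, 1.76 and 4.62 for Col4a1, 2.06 and 1.80 for Col4a5, and 2.24 and 2.72 for Col6a1. For Col4a6 they were -0.86 and 0.31. With slide as a fixed block, where replicate 3 alone on its slide adds nothing, Col23a1 was called higher (3.27, adjusted p = 0.0473; background 0.647%) and none lower (background 0.105%), and the median was 1.63. Array weights, which give replicate 3 a weight of 0.241 against 2.49 and 2.48 for replicates 1 and 2, called 17 collagens higher (background 10.8%) and none lower (background 10.9%).

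**Figure D3:**
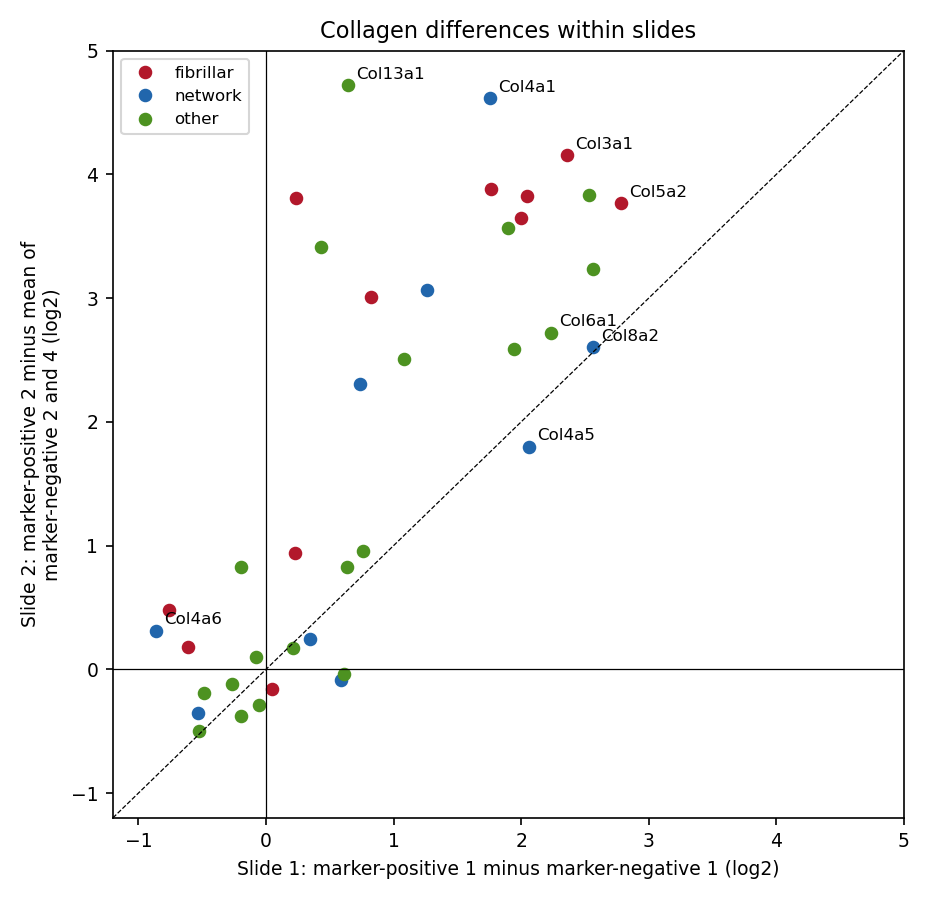
Collagen differences on slide 1 (x axis) and slide 2 (y axis), in log2 units, 1 point per gene, coloured by class; the dashed line marks equal values. Of the 39 genes 25 lie above 0 on both slides, and 31 lie above the dashed line, for which no share over all genes was computed.

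Neighbouring collagen genes were set side by side, using the RefSeq gene order and the strand of the probes. Of 6 neighbouring pairs, 4 had differences of the same sign. No share over other pairs of genes was computed, so this count is a description only. Col4a1 and Col4a2, arranged head to head, differed by 1.64 and 1.38. Col3a1 and Col5a2, arranged tail to tail, differed by 1.26 and 2.17, and by 3.57 and 3.37 without replicate 3. Col6a1 and Col6a2, on one strand, differed by 1.54 and 0.26. The head-to-head pair Col4a5 and Col4a6, whose windows are printed above, differed by 1.58 and -1.37, and by 1.68 and -0.13 without replicate 3. The head-to-head pair Col4a3 and Col4a4 differed by 0.041 and -0.36 on their brightest probes. A second Col4a4 probe, described below, had the other sign. The remaining pair, Col9a1 and Col19a1, arranged tail to tail, differed by -0.12 and -0.21, and Col19a1 was not tested.

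The choice of probe mattered for many members. Of the 39 genes 27 had more than 1 probe, with probes of one gene spread over 170 to 238203 bases of the genome. The brightest probe was the one nearest the 3′ end of the gene in 21 of the 27. The other 37 probes had a median difference of 0.0068, with 19 above and 18 below 0, and 9 of them were not well above background on any array. Probes within 1 kb of the 3′-most probe had a median difference of 0.89 (35 probes, 28 tested), and those farther away -0.011 (29 probes, 15 tested). The nearer set includes the 3′-most probes themselves, in 21 of the 27 genes the brightest probe. Its median therefore largely repeats the differences given above and is no separate evidence on position. Probes within 1 kb that were neither the 3′-most nor the brightest of their gene ranged from -0.17 (Col2a1) to 1.07 (Col4a1). Probes of a gene disagreed in sign for Col1a1, Col2a1, Col3a1, Col4a4, Col5a1, Col5a3, Col6a3, Col11a1, Col11a2, Col14a1, Col15a1, Col16a1, Col19a1, Col23a1, Col25a1 and Col27a1. Among the 16 genes with several tested probes, 8 disagreed when tested probes alone were counted. The other Col1a1 probes, at 95059777 to 95059836 and 95047002 to 95047061, differed by -0.37 and -0.49. The latter gave 1.73, 1.90 and 5.08 in marker-positive cells, so that replicate 3 was high where the brightest probe had it low. A second Col4a4 probe, nearer the 3′ end and not the brightest, gave 3.73, 3.94 and 0.17 in marker-positive cells and differed by 2.34 (adjusted p = 0.118). Without replicate 3 it differed by 3.56 (adjusted p = 0.00162), where the brightest Col4a4 probe differed by -0.59.

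**Figure D4:**
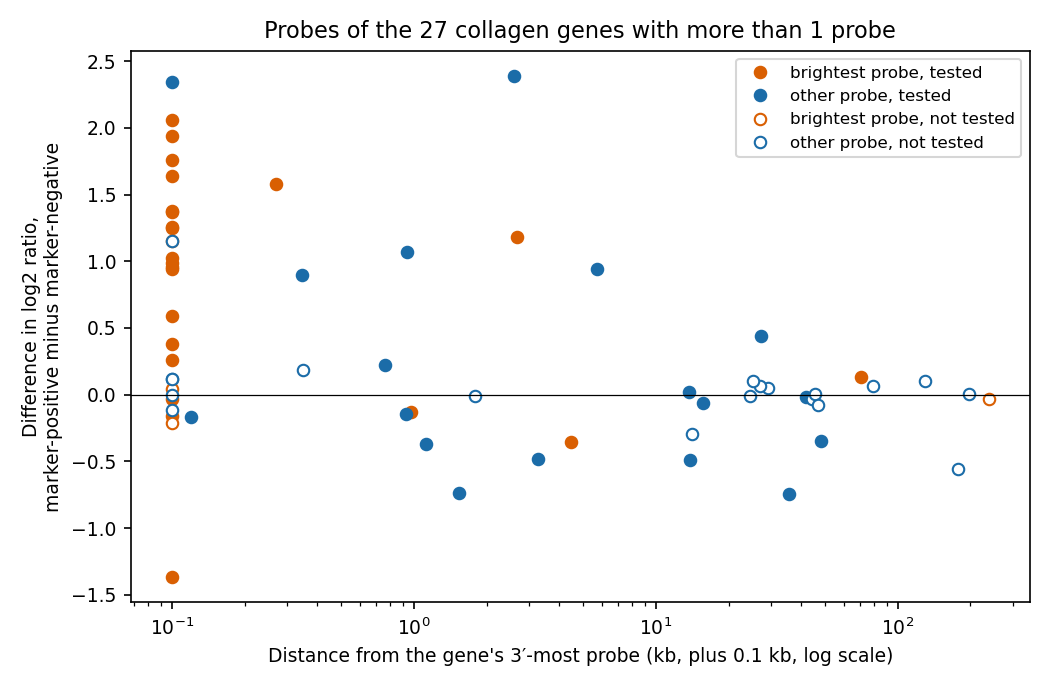
Difference of each probe (y axis, log2, marker-positive minus marker-negative) against its distance from the 3′-most probe of its gene (x axis, kb plus 0.1, log scale) for the 27 genes with several probes. Filled points were tested; orange marks the brightest probe, blue the others. Most differences above 0.5 lie within 1 kb, where the median is 0.89, and probes farther away have a median of -0.011. The 3′-most probes themselves, most of them the brightest of their gene, count as within 1 kb.

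Collagen chains are hydroxylated and folded in the endoplasmic reticulum before secretion. For this list and those below, the shares over all genes are the ones set beside the collagens. With all arrays, 1.57% were called higher and 1.69% lower. At an unadjusted limma p under 0.05 the shares were 9.73% and 9.82%. Without replicate 3, 4.7% were called higher and 2.52% lower. Of 17 genes of folding and modification 15 were tested and none was called in limma (unadjusted p under 0.05 for 1 higher and 1 lower). Of the 17 differences 11 were above 0, with a median of 0.22. The cyclophilin Ppib gave 1.35, 1.26 and 1.91 against 2.03, 2.14 and 2.74 and did not overlap between groups (difference -0.75, adjusted p = 0.10). Without replicate 3 it was lower (-0.95, adjusted p = 0.0347). The galactosyltransferase Colgalt1 gave 1.5, 1.40 and 1.57 against 0.52, 0.70 and 1.14 (difference 0.74, adjusted p = 0.102). In both, replicate 3 lay on the same side as its group. Serpinh1, the collagen chaperone HSP47, was picked after its values were seen: it gave 0.21, 0.73 and -6.07 against -5.54, -3.03 and -1.64. Replicate 3 was its lowest array, and the difference was 1.67 (adjusted p = 0.590), or 3.85 (adjusted p = 0.0604) without replicate 3.

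After secretion, proteases trim procollagen and lysyl oxidases cross-link the fibrils. Of 13 such genes 12 were matched and 8 tested. None was called in limma (4 higher at an unadjusted p under 0.05), and 9 differences lay above 0, with a median of 0.85. Pcolce2, an enhancer of procollagen C-proteinase, gave 2.18, 1.83 and -1.23 against -3.32, -2.50 and -0.55. It differed by 3.21 (SE 0.80, adjusted p = 0.0612), and by 4.29 (adjusted p = 0.00807) without replicate 3. The cross-linking enzyme Lox gave -1.33, -1.95 and -3.92 against -5.26, -4.41 and -3.21, a difference of 1.99 (SE 0.59, adjusted p = 0.10), and of 2.75 (adjusted p = 0.0146) without replicate 3. Without replicate 3, 4 genes of this list were called higher.

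Cells bind collagen through integrins and discoidin domain receptors and take it up through Mrc2. Of 10 genes 7 were tested and 1 was called higher. Itga11, the integrin subunit that pairs with integrin beta 1 to bind fibrillar collagen on fibroblasts, gave 1.98, 2.66 and -0.045 against -1.76, -1.22 and -0.48. All marker-positive arrays lay above all marker-negative ones, and replicate 3 was the lowest of its group. Itga11 was higher by 2.74 (SE 0.55, adjusted p = 0.0302), and by 3.86 with slide as a fixed block (adjusted p = 0.0380). Without replicate 3 the difference was 3.53 (adjusted p = 0.00281). The median of the 10 genes was 0.12.

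Small proteoglycans and glycoproteins coat collagen fibrils. All 12 genes of this list had differences above 0, with a median of 1.44, and of 11 tested 1 was called higher. Aspn, the leucine-rich protein asporin, gave 0.75, 0.46 and -0.67 against -1.90, -1.30 and -1.04, with no overlap. It was higher by 1.56 (SE 0.35, adjusted p = 0.0431), but was well above background on 2 of 3 and 2 of 6 arrays. Without replicate 3, 5 of the 11 were called higher, Aspn by 1.98 (adjusted p = 0.00808), and with the block Aspn did not pass (2.08, adjusted p = 0.0565).

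Markers of stromal and vascular cells were set beside the collagens. All 10 fibroblast markers had differences above 0, with a median of 2.49, and none was called in limma (6 higher at an unadjusted p under 0.05). Without replicate 3, 8 were called higher (background 4.7%) and the median was 4.09. Their mean ratio in marker-positive cells was 2.49 on replicate 1, 2.26 on replicate 2 and -1.66 on replicate 3, against -2.18 to 0.33 on marker-negative arrays. All 10 were well above background on replicates 1 and 2, 5 on replicate 3 and 7 to 10 on marker-negative arrays. Among them Pi16 differed by 3.24 (adjusted p = 0.0694) and the fibrillin Fbn1 by 3.11 (adjusted p = 0.0747). The endothelial markers had a median of 2.11, with means of 3.33, 4.86 and 0.72 against 0.51 to 2.14, and Vwf was called (3.99, adjusted p = 0.00843), also without replicate 3 (4.20, adjusted p = 0.0122). Smooth muscle and pericyte markers had a median of 0.67, with means of 0.16, 1.27 and -1.71 against -1.94 to 0.63, so that replicate 1 lay inside the marker-negative range. None passed limma's test, with 1 higher at an unadjusted p under 0.05. In these 3 lists every marker was well above background on some array of each group.

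Lists of other cell types gave the following values. Macrophage markers had means of 5.34, 4.15 and 4.98 against -0.46 to 1.86, so that replicate 3 was as high as replicates 1 and 2, and 4 of 8 were called higher. Of these, Mrc1 and Cd163 stayed within background on every marker-negative array, and Lyz2 and F13a1 differed by 4.88 and 8.0. Mast cell markers had means of 4.92, 4.20 and 4.99 against 0.23 to 3.29, and 4 of 6 were called higher (Cpa3, Kit, Tpsb2 and Fcer1a). Kit encodes CD117, on which the fractions were sorted, so its direction was set by the sort, and it also entered these means. Lymphocyte markers had means of 0.075, -0.13 and 1.26 against 1.82 to 4.73, and 5 of 8 were called lower. Luminal epithelial markers had means of 2.82, 3.02 and 0.26 against 3.60 to 5.0, and Pbsn and Msmb were called lower. Basal markers had means of 2.22, 2.65 and 0.46 against 0.43 to 2.15. As in the collagen classes, replicates 1 and 2 lay above all marker-negative arrays and replicate 3 did not. Of the basal markers Trp63 was called higher (2.02, adjusted p = 0.0446). None of 5 tested Schwann cell markers was called in limma or reached an unadjusted p under 0.05, and Cdh19 was not well above background on any array. The part of any of these cell types in the collagen values was not tested.

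**Figure D5:**
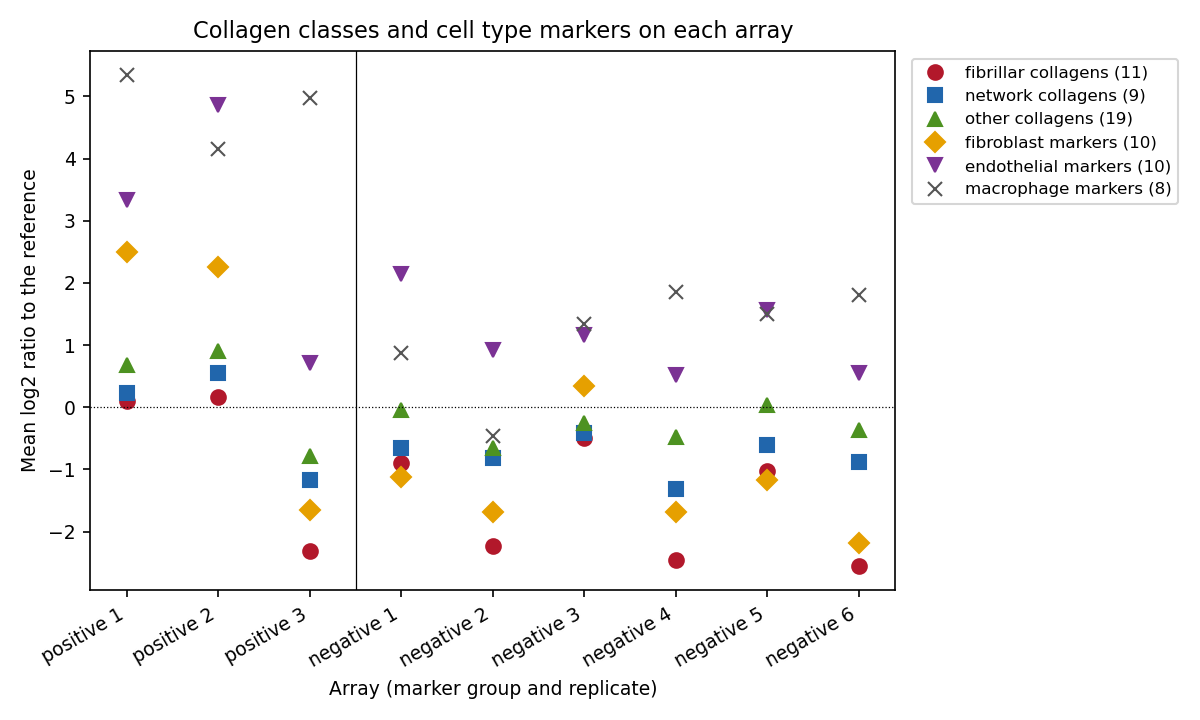
Mean log2 ratio to the reference (y axis) of the 3 collagen classes and of fibroblast, endothelial and macrophage markers on each array (x axis); numbers in the legend are genes per mean. Collagen classes and fibroblast markers are high on marker-positive replicates 1 and 2 and low on replicate 3 (fibrillar mean -2.31, fibroblast mean -1.66), while the macrophage mean is 4.98 there.

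The authors' deposited table lists all 39 brightest probes, and all 39 differences had the sign found here once its log2 column was turned. That column runs opposite to the signed fold column of the authors' deposited table, which its header gives as stem over non-stem cells. The values differed from those here by a median gap of 0.0056 and a largest gap of 0.053 log2 units. In the authors' deposited table the adjusted p-value was 0.0112 for Col4a5 and 0.0337 for Col6a1. For Col2a1, whose probe has 10 rows in the authors' deposited table, it ran from 0.0433 to 0.0830.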

How the data were processed

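RNA of sorted prostate cells was measured on 9 Agilent 2-colour mouse arrays of design 014868. RNA isolation used PicoPure, amplification MessageAmp II and labelling Quick Amp, per the labels. The deposited scanner files hold spot intensity values, written by Feature Extraction 10.7.3.1 per the file headers (10.7 per the submitters' processing notes), with probe coordinates of build mm7:NCBI35:Aug2005. A table of the comparison, deposited by the authors, holds log2 differences, adjusted p-values and signed fold values, the last treated as a score. How the authors normalized them: not given in the sources used here.

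For the present values, spot means were background-corrected by normexp (median local background, offset 50) in limma 3.58.1 (R 4.3.3) and loess-normalized within arrays, with control and outlier spots at weight 0. Outlier spots were then dropped and the spots of a probe averaged. A probe was tested if it cleared the Cy5 background flag on 3 arrays or more, and a gene was its brightest probe. Groups were compared by limma's moderated two-sided test with trend over intensity and robust variance, Benjamini-Hochberg adjusted over 28334 probes. Differences are marker-positive minus marker-negative, and SE is the moderated standard error. The number of arrays limits the precision.

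The text names called collagens, the 12 with the smallest p, 10 chains always named, genes whose probes disagree, and from each other list up to 4 called genes or else the 2 with the smallest p. Others are named for completeness of their class. Members and lists were chosen with earlier results of these data known. Alternatives covered background correction, normalization, detection filter, slide, array weights, probe rule, variance model and each array left out. Tested on simulated data for this comparison with 28334 probes, the procedure called 39 of 100 probes given a change of 2 log2 units, and 10 of 100 given a change of 1. Plots were drawn with matplotlib 3.10.9.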

Additional observations from a re-analysis of the deposited data

Results flagged for a closer look

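Among the marker-negative arrays, replicate 4 lay far below the others for Col4a5, at a log2 ratio of -2.26. Its gap to the nearest array was 0.644 of the group's range. This was 1 of 20 groups examined for such an array, and chance gives about 5% of groups.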

How the results depend on the processing

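The number of collagens called higher was 1 with all arrays, 0 under median centring, 0 of 21 tested when both channels had to be well above background on all arrays, 17 with array weights and 2 with the mean of a gene's probes. Leaving out 1 array gave 0 to 9, the highest on leaving out marker-positive replicate 3. It was 0 on leaving out replicate 1 or 2 of the marker-positive group, or replicate 1, 2 or 5 of the marker-negative group. The share of all genes called higher moved as well. It was 1.57% with all arrays, 4.7% without marker-positive replicate 3 and 10.8% with array weights. No such share was computed for median centring, the filter on both channels or the mean of a gene's probes. The number of collagens called lower was 0 in the limma fits run. The median difference of 0.588 became 1.63 with slide as a fixed block, 1.80 within slide 2 and 1.42 with array weights, and leaving out 1 array gave 0.406 to 1.40. The block, both slides and the weights leave out or down-weight marker-positive replicate 3. Col4a6 turned from -1.37 to 0.313 within slide 2; the cause was not tested. Of 371 fits of the 20 named collagens under an alternative, 339 kept direction and side of the threshold, 7 lost a call, 25 gained one and none reversed. Only Col4a5 was called with all arrays, so the 7 lost calls were its own. For the others, keeping the side of the threshold meant staying uncalled, and sizes could still move widely. Col3a1 counted as kept when it fell from 1.26 to 0.018 on leaving out marker-positive replicate 1. No paired analysis was possible because the labels give no replicate numbers that tie arrays of the groups to each other, and the slide comparisons use only the slide that arrays shared. Signal over background limits the 5 untested collagens and the marker-negative mean of Col4a5.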
